A study of Homo sapiens with 6 samples.

Results

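Kinesins are motor proteins that walk on microtubules, and the 46 genes described here encode most human kinesin motors together with some of their partner subunits. They were taken by name from the 58735 genes of the count table, as protein-coding genes with a KIF or KIFC symbol, plus the adaptor subunit KIFAP3 and the kinesin light chains KLC1, KLC2 and KLC4. RNA had been sequenced from parent MDA-MB-231 cells (genotype WT in the labels, 3 libraries) and from ADR-resistant cells derived from them (ADRr, 3 libraries). MDA-MB-231 is a triple-negative breast cancer cell line, and ADR is Adriamycin (doxorubicin), an anthracycline that damages DNA. According to the study's methods, resistant cells were selected stepwise in rising drug concentrations and then isolated as clones by limiting dilution. The sources used here do not give how many clones the 3 ADRr libraries stand for, or whether drug was present at harvest. Both groups share the line's own background, so every difference is between a selected derivative and its parent, and resistance cannot be told apart from other changes that came with selection and cloning.

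A kinesin couples ATP hydrolysis in its motor domain to steps along a microtubule or, in some families, to taking the microtubule end apart. Mitotic kinesins build the spindle, move and align the chromosomes and organise the cleavage furrow, and most of them are made in the G2 and M phases of the cell cycle. Cargo kinesins carry vesicles, organelles and RNA through the cytoplasm or cargo into cilia, in interphase as well. By textbook function, 14 members were placed among the mitotic kinesins, 19 among cargo transport (motor subunits and their light chains or adaptor) and 13 in neither group. These roles were set with earlier results of these data known, so counts by role are descriptions and not independent tests.

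Total counts ranged from 15983985 to 18272314 per library, and the normalization factors from 0.987 to 1.01. Where a library has a count of 0, the limit is 3 counts, which is 0.164 to 0.188 CPM (counts over the library's total) and covers counting error only. Levels are given as normalized counts, which are counts scaled to a common library size, or, between genes, as the deposited FPKM, which is also divided by gene length. Groups were compared with edgeR's quasi-likelihood test, with p-values adjusted over all 15242 genes tested. To be called higher or lower in ADRr cells, a gene needed an adjusted p no greater than 0.05 together with a change of 1.2-fold or more (0.263 on the log2 scale). Nothing in the labels says that the libraries of a group came from separate cultures, so the p-values measure the spread between these libraries, which may be technical. The series record mentions 3 time points that no label gives, so this spread may also hold differences in time. The line's markers VIM and CD44 were abundant in all 6 libraries. Of 8 markers of the line, 5 were called lower in ADRr cells (62.5%, against 29.6% of all tested genes). VIM was among these (log2 fold change -0.56), and CD44 was the 1 called higher (0.80). Of 6 luminal, HER2 (ERBB2) or epithelial markers, ESR1, PGR and FOXA1 had at most 2 counts in any library. The other 3 were detected: ERBB2 went from 2059 ± 164 to 869.5 ± 46.4 normalized counts and CDH1 from 252 ± 26.7 to 121 ± 19.2, both called lower (log2 fold changes -1.25 and -1.07, adjusted p = 2.4e-13 and 3.7e-07), and GATA3 was not called (-0.22, adjusted p = 0.027). Of 8 leukocyte markers, TYROBP had a count of 0 in all 6 libraries, and PTPRC, CD3E, CD53 and LYZ had at most 4 counts in any library. The summed counts of the 8 were 897 to 996 in parent and 1546 to 1705 in ADRr libraries, nearly all from LAPTM5 and CORO1A.

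Every tested kinesin placed in the mitotic group was lower in ADRr cells, whereas the cargo kinesins went both ways. KIF2A and KIF24 could also be counted as mitotic. They were put among the remaining members, where KIF24 was called lower and KIF2A was not called. Of the 46 members, 36 passed the filter on low counts. Among these 36, 18 were called lower and 7 higher, and 11 were not called, against 29.6% of all tested genes called lower and 29.2% called higher. The mitotic group gave 12 lower calls and 0 higher calls from 12 tested genes, with a median log2 fold change of -1.22 (range -3.44 to -0.37). The cargo group gave 4 lower and 6 higher calls from 16 tested genes, with a median of 0.07 (range -0.66 to 1.17). The remaining members gave 2 lower and 1 higher call from 8 tested genes, with a median of 0.02 (range -1.197 to 2.36). Had the threshold been 1.2 on the log2 scale, 7 mitotic members would have been called lower, and 0 cargo members in either direction. The median over all tested genes was -0.01 and that over the 12610 protein-coding genes tested was -0.02. In all 12 mitotic members the ADRr libraries lay below every parent library, an arrangement seen in 34.7% of all tested genes. The opposite arrangement, with every ADRr library above every parent library, was seen in 34.5% of all tested genes, in 7 of the 16 cargo members, in 2 of the 8 remaining members and in 0 mitotic members.

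**Figure D1:**
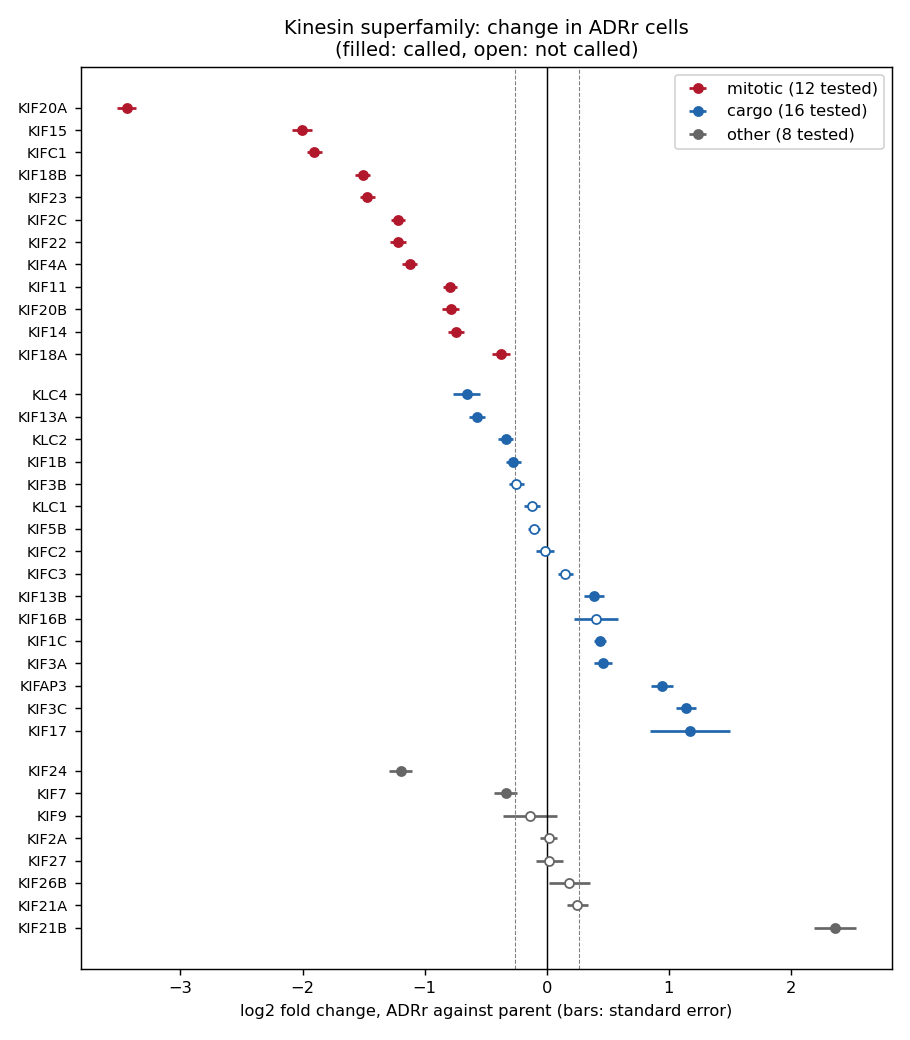
Log2 fold change (ADRr against parent, horizontal axis) of the 36 tested members, with standard errors as bars and dashed lines at the 1.2-fold threshold. All 12 mitotic members (red) lie left of 0, from -3.44 for KIF20A to -0.37 for KIF18A, and the 16 cargo members (blue) spread to both sides.

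The kinesins of the spindle midzone and cytokinesis included the member that fell most. KIF20A (MKLP2), a kinesin-6 motor that brings the chromosomal passenger complex to the midzone, had 2452, 2575 and 2467 normalized counts in the parent libraries and 246.5, 245 and 201 in the ADRr libraries. The 3 parent values were close together, and the ADRr values lay far below them. The log2 fold change was -3.44 (SE 0.077, adjusted p = 4.2e-20), a 10.8-fold lower level in ADRr cells. KIF23 (MKLP1), the motor of the centralspindlin complex, had 4445, 4384 and 4129 normalized counts in parent and 1598, 1413 and 1666 in ADRr libraries. Here too the groups were far apart, with a log2 fold change of -1.47 (SE 0.061, adjusted p = 2e-15). KIF20B (MPP1), which acts late in cytokinesis, had 2521, 2805 and 2262 normalized counts in parent and 1521, 1415 and 1462 in ADRr libraries. Its parent libraries were more scattered, and still all above the ADRr libraries (log2 fold change -0.79, SE 0.068, adjusted p = 7.7e-10). Thus the 3 kinesin-6 genes fell by different amounts, and KIF20A held 38.1% ± 1.2 of the summed kinesin-6 FPKM in parent cells and 11.5% ± 1.5 in ADRr cells (SD, n = 3). KIF4A, a chromokinesin that limits the length of midzone microtubules, had 2386, 2408 and 2201 normalized counts in parent and 1106, 1007 and 1102 in ADRr libraries (log2 fold change -1.12, SE 0.062, adjusted p = 3e-13). Its intronless copy KIF4B was not tested, with 5, 9 and 5 counts in parent and 3, 3 and 4 in ADRr libraries. The transcripts of KIF4A and KIF4B are 95.2% identical over 4359 aligned bases, so the division of reads between them is uncertain. KIF14, a kinesin-3 motor that recruits citron kinase to the furrow, had 1920, 2025 and 1746 normalized counts in parent and 1178, 1102 and 1118 in ADRr libraries (log2 fold change -0.74, SE 0.064, adjusted p = 8.1e-10).

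The motors that build the bipolar spindle fell unequally. KIF11 (Eg5), the tetrameric kinesin-5 that pushes the poles apart, had 3281, 3366 and 3006 normalized counts in parent and 1836, 1780 and 1958 in ADRr libraries. This is a log2 fold change of -0.79 (SE 0.058, adjusted p = 5.1e-11), with no overlap between the groups. KIF15 (Hklp2), a kinesin-12 motor that can take over part of the work of KIF11, had 1097, 1227 and 1087 normalized counts in parent and 277, 307 and 267 in ADRr libraries. It had the second largest decrease of the mitotic group, with a log2 fold change of -2.004 (SE 0.083, adjusted p = 2e-15). The 50 nearest tested genes on chromosome 3 had a median of -0.56, and the difference of KIF15 from it was -1.44. KIFC1 (HSET), a kinesin-14 motor that walks towards the minus end and clusters extra centrosomes, had 3362, 3097 and 3456 normalized counts in parent and 929.7, 877 and 842 in ADRr libraries. Its log2 fold change was -1.90 (SE 0.062, adjusted p = 2.6e-17), and 12.7% of its exonic bases are shared with a pseudogene on the opposite strand. The 50 tested genes nearest to KIFC1 had a median of -0.29. The unequal decreases show in the FPKM ratios within libraries. The ratio of KIFC1 to KIF11 was 1.49, 1.34 and 1.67 in parent and 0.736, 0.716 and 0.625 in ADRr libraries, so the order of these 2 genes was the reverse in every library of the 2 groups. The ratio of KIF15 to KIF11 was 0.325 ± 0.015 in parent and 0.141 ± 0.017 in ADRr cells (SD, n = 3).

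The kinesins that attach, align and move chromosomes were also lower. KIF2C (MCAK), a kinesin-13 that depolymerises microtubules at the centromere, had 2499, 2327 and 2368 normalized counts in parent and 1038, 1007 and 1040 in ADRr libraries (log2 fold change -1.22, SE 0.058, adjusted p = 2.3e-14). KIF22 (Kid), a kinesin-10 that binds DNA and pushes chromosome arms outwards, had 1511, 1464 and 1536 normalized counts in parent and 675, 612 and 648 in ADRr libraries (log2 fold change -1.22, SE 0.066, adjusted p = 2.2e-13). Of the 4312 exonic bases of KIF22, 561 are shared with a gene on the opposite strand. In both genes the lowest parent library was more than 2 times the highest ADRr library. The kinesin-8 pair, which shortens or restrains the plus ends of spindle microtubules, diverged. KIF18B had 2151, 2259 and 2320 normalized counts in parent and 769, 824 and 779 in ADRr libraries (log2 fold change -1.51, SE 0.061, adjusted p = 1.4e-15). KIF18A, the member that damps chromosome oscillations, had 1032, 1195 and 986 normalized counts in parent and 834, 794 and 849.9 in ADRr libraries (log2 fold change -0.37, SE 0.075, adjusted p = 1.5e-04). KIF18A therefore showed the smallest decrease of the mitotic group, and its FPKM ratio to KIF18B was 0.477 ± 0.052 in parent and 1.04 ± 0.071 in ADRr cells. KIF2B, a further kinesin-13, had a count of 0 in all 6 libraries.

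**Figure D2:**
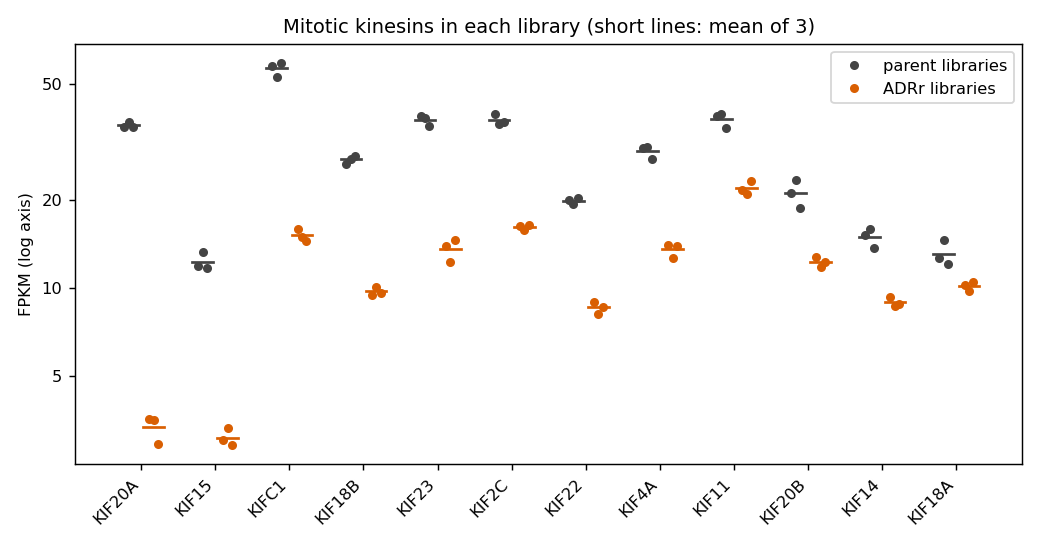
FPKM (log axis) of the 12 tested mitotic kinesins in each parent (grey) and ADRr (orange) library, with a short line at the mean of 3, ordered from the largest decrease to the smallest. No ADRr point reaches a parent point in any gene, and KIF20A has moved from 36.1 to 3.34 FPKM on average.

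Per length, the mitotic kinesins changed places. In parent cells KIFC1 (56.5 ± 3.2 FPKM) came first of them, followed by KIF11 (37.9 ± 2.3), KIF2C (37.6 ± 1.5), KIF23 (37.6 ± 1.6) and KIF20A (36.1 ± 0.94), and the last 4 of these did not differ beyond their spread (SD, n = 3). In ADRr cells KIF11 came first with 21.9 ± 1.1 FPKM, followed by KIF2C with 16.2 ± 0.34 and KIFC1 with 15.1 ± 0.74. KIF20A went from rank 6 of the 46 members to rank 24, and KIF15 from rank 18 to rank 26.

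A list of 36 proteins that work with these motors (kinetochore, chromosomal passenger, spindle pole and cytokinesis proteins) was measured in the same fit. This list, too, was chosen with earlier results of these data known. Of the 36, 31 were called lower (86.1%, against 29.6% of all tested genes) and 1 higher (2.78%, against 29.2%), with a median log2 fold change of -1.08. The largest decreases among those with at least 100 normalized counts were in PLK1, the mitotic kinase that docks on KIF20A (2459 ± 234 to 601 ± 18.1 normalized counts, log2 fold change -2.03, SE 0.071, adjusted p = 9.9e-17), and NUSAP1, a spindle protein that binds microtubules (335 ± 24 to 98.5 ± 9.95, log2 fold change -1.77, SE 0.12, adjusted p = 1.7e-11). A further 4 were not called. The 1 called higher was SKA1, a kinetochore protein, which went from 367 ± 43.8 to 511 ± 10.6 normalized counts (log2 fold change 0.48, SE 0.093, adjusted p = 9.7e-05). In bulk RNA, fewer cells in G2 and mitosis and less RNA per such cell cannot be told apart. The mitotic kinesin CENPE, whose symbol is outside the naming rule, was lower too (1787 ± 149 to 1146 ± 91.1 normalized counts, log2 fold change -0.64, SE 0.071, adjusted p = 4.4e-08). STARD9, a kinesin that holds the pericentriolar material together, went from 643 ± 55.7 to 289 ± 11.4 normalized counts (log2 fold change -1.15, SE 0.09, adjusted p = 1.5e-10).

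The promoters of the members were read from the RefSeq promoter table (build GRCh38.p14), which gives 250 bases before and 50 bases after a gene's start. A window was found for 36 of the 46 members, and for 28 of the 36 tested, among them all 12 tested mitotic genes. Where a gene has several windows the first was used. The windows were searched on both strands for the letters of the CHR element, TTTGAA, and for its other common form, TTCGAA. MuvB complexes bind this element in genes of the G2 and M phases, and it is printed reversed and complemented where the match was on the other strand. The second search, also on both strands, was for the letters CCAAT, the box bound by the transcription factor NF-Y. No CHR match overlapped a CCAAT match. CHR letters were found in 10 of the 12 mitotic windows (83.3%), in 2 of the 16 windows of the other tested members (12.5%), in 10.9% of 9993 protein-coding tested genes and in 16.6% of 27305 genes in the table. CHR and CCAAT letters together were found in 9 of 12 mitotic windows (75.0%), in 2 of 16 other windows (12.5%) and in 4.56% of the protein-coding tested genes. That share was 6.3% of the protein-coding genes called lower and 3.17% of those called higher. In the 31 mitotic partners with a window it was 61.3%. E2F letters, searched on both strands as TTCCCGC with 3 further forms (the letters TTGGCGC, or alternatively the letters TTGCCGC, or alternatively the letters TTCGCGC), were found in 4 of 12 mitotic windows and 4 of 16 other windows, against 20.8% of protein-coding tested genes. These are matches of letters, not sites of binding. The mitotic members were chosen by function, and CHR is an element of genes of the G2 and M phases. A high share in their windows can therefore come from that choice alone. Whether the letters have a part in the decrease was not tested.

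The 30 bases around the CHR letters of the 10 mitotic genes that hold them are shown so that the element and its flanks can be compared between genes. They are written in the direction of the gene, with CHR letters in capitals, and with the CCAAT letters that fall within the 30 bases of KIF23 also in capitals.
KIF11, chr10:92593090-92593119, plus strand: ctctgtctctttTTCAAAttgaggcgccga
KIF14, chr1:200620733-200620762, minus strand: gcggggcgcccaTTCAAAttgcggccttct
KIF15, chr3:44761747-44761776, plus strand: ccaagcgccaaaTTCAAAtttgcggccatc
KIFC1, chr6:33391815-33391844, plus strand: tggccgttggaaTTCAAAagtggcgggtgt
KIF4A, chrX:70290058-70290087, plus strand: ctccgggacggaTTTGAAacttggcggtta
KIF18A, chr11:28108149-28108178, minus strand: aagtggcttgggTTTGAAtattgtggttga
KIF18B, chr17:44947754-44947783, minus strand: ccgcccggctaaTTTGAAcgcaaggcgccg
KIF20B, chr10:89701608-89701637, plus strand: ccattgTTTGAATTTGAAaacggtaacatc
KIF23, chr15:69414282-69414311, plus strand: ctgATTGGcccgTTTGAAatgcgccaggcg
KIF22, chr16:29790712-29790741, plus strand: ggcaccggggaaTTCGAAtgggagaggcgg

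In all 9 mitotic windows that hold both, the nearest CCAAT letters came before the CHR letters. The gap was 18 bases in KIF14, 19 in KIF4A, 20 in KIF11, 29 in KIF18B, 30 in KIF18A, 34 in KIF22 and 45 in KIFC1, with 4 in KIF23 and 117 in KIF20B at the ends of the range. The arrangement is shown for KIF11 and KIF4A in stretches in which GENCODE 29 has no exon, again with both elements in capitals.
KIF11, chr10:92592990-92593129, plus strand: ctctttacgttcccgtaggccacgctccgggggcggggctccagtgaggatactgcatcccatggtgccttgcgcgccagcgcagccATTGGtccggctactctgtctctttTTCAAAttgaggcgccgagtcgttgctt
KIF4A, chrX:70289980-70290089, plus strand: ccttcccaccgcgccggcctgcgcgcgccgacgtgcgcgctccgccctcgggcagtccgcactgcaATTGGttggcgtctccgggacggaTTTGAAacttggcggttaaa

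KIF20A, with the largest decrease of the mitotic group, held CCAAT letters at 2 places and no CHR letters in this window, and KIF2C held neither. KIF15 held CHR letters without CCAAT. KIF18A, with the smallest decrease, held both, 30 bases apart. Outside the mitotic group, both were found in KIF5B, where the CHR letters came first, 75 bases before CCAAT, and in KIF24, where CCAAT came first by 43 bases. KIF24, described further on, was called lower, and KIF5B was not called.

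Kinesin-1, the main plus-end motor for vesicles and mitochondria, gave 2 lower calls and 0 higher calls from 4 tested genes. The shares of all tested genes were 29.6% called lower and 29.2% called higher. KIF5B, its ubiquitous heavy chain, was the member with the most FPKM in both groups (58.0 ± 2.4 in parent and 54.2 ± 1.5 in ADRr cells). It had 6096, 6105 and 5693 normalized counts in parent and 5577, 5402 and 5680 in ADRr libraries. The highest ADRr library was just under the lowest parent library, and the difference did not pass the test (log2 fold change -0.10, SE 0.049, adjusted p = 0.069). The neuronal heavy chains KIF5A and KIF5C had at most 2 and 4 counts in any library and were not tested. Of the light chains, which link the heavy chain to its cargo, KLC2 held 80.6% ± 0.32 of the FPKM of KLC1, KLC2 and KLC4 in parent and 81.0% ± 0.44 in ADRr cells. KLC2 had 2645, 2272 and 2684 normalized counts in parent and 1968, 2064 and 1988 in ADRr libraries (log2 fold change -0.34, SE 0.062, adjusted p = 5.5e-05). KLC4 fell further, from 365, 320.2 and 405 to 226.5, 232 and 234 normalized counts (log2 fold change -0.66, SE 0.11, adjusted p = 9.7e-06). The median of the 50 nearest tested genes was -0.38 for KLC4 and -0.15 for KLC2. The differences from it were -0.27 and -0.19. KLC1 was not called (log2 fold change -0.12, SE 0.067, adjusted p = 0.12), and 40.6% of its exonic bases are shared with BAG5, XRCC3 and a further gene, so its reads are uncertain. The strand setting of the counting is not given in the sources used here, and 12.8% of the exonic bases of KLC4 and 9.58% of those of KLC2 are also shared with other genes. KLC3, the light chain outside the naming rule, went from 173 ± 33.6 to 113 ± 17.3 normalized counts (log2 fold change -0.61, SE 0.16, adjusted p = 0.0019).

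Kinesin-2 was the family with most calls upward: 4 of its 5 genes were called higher and none lower, with a median log2 fold change of 0.94. Among all tested genes 29.2% were called higher and 29.6% lower. This family moves cargo along the cilium and also carries vesicles in the cytoplasm, as a trimer of KIF3A with KIF3B or KIF3C and the adaptor KIFAP3, or as a dimer of KIF17. KIF3C had 397, 421 and 402 normalized counts in parent and 881, 835 and 970.4 in ADRr libraries. The lowest ADRr library was nearly 2 times the highest parent library (log2 fold change 1.14, SE 0.08, adjusted p = 2.3e-11). KIFAP3 had 367, 289.9 and 326 normalized counts in parent and 645, 599 and 649 in ADRr libraries (log2 fold change 0.94, SE 0.092, adjusted p = 6.1e-09). KIF3A, the common partner, rose less, from 618.5, 579 and 557 to 843, 782 and 792 normalized counts (log2 fold change 0.46, SE 0.075, adjusted p = 1.1e-05). KIF3B, the usual partner of KIF3A, went the other way, from 2322, 2487 and 2165 to 2039, 1973 and 1846 normalized counts. All ADRr libraries of KIF3B lay below the parent libraries, and the log2 fold change of -0.25 (SE 0.061, adjusted p = 9.9e-04) was just under the 1.2-fold threshold, so it was not called. Without parent replicate 3 (-0.30) or ADRr replicate 1 (-0.27) it was. KIF17, a motor best known from neurons and cilia, was near the detection limit, with 19.6, 11.9 and 15.6 normalized counts in parent and 30.4, 44 and 32.7 in ADRr libraries (log2 fold change 1.17, SE 0.33, adjusted p = 0.0038).

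The makeup of the KIF3 subunits changed accordingly. KIF3B held 71.9% ± 1.1 of the summed FPKM of KIF3A, KIF3B and KIF3C in parent and 55.4% ± 2.0 in ADRr cells, whereas KIF3C held 11.6, 11.8 and 12.6% of it in the parent and 23.1, 23.0 and 26.6% in the ADRr libraries. The FPKM ratio of KIF3B to KIF3C was 6.13, 6.20 and 5.65 in parent and 2.43, 2.48 and 2.00 in ADRr libraries. KIF3B was still the most abundant of the 3 in every library. The genes around KIF3C on chromosome 2 were also higher: the median log2 fold change of the 50 nearest tested genes was 0.59, and KIF3C exceeded it by 0.55. For KIFAP3, KIF3A and KIF17 the same median was -0.04, 0.09 and -0.10. The part of the neighbourhood in the KIF3C result was not tested.

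**Figure D3:**
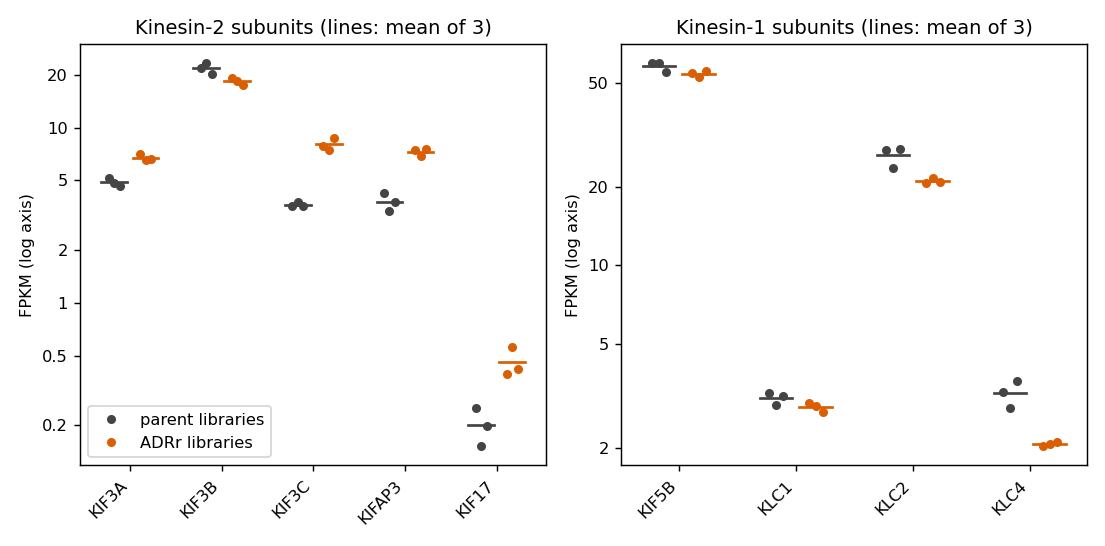
FPKM (log axis) of the kinesin-2 subunits (left) and the tested kinesin-1 subunits (right) in each parent (grey) and ADRr (orange) library, with lines at the mean of 3. KIF3C, KIFAP3, KIF3A and KIF17 lie higher in all ADRr libraries and KIF3B lower, while KIF5B moves only from 58.0 to 54.2 FPKM on average.

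The cargo motors of kinesin-3, which carry endosomes, lysosomes and dense-core vesicles, split. KIF1C, a motor for dense-core vesicles, integrins and RNA, had 3660, 3742 and 4139 normalized counts in parent and 5163, 5196 and 5258 in ADRr libraries (log2 fold change 0.44, SE 0.053, adjusted p = 1.8e-07). With 34.8 ± 0.39 FPKM it was second of all 46 members in ADRr cells, after rank 10 in parent cells. The 50 tested genes nearest to KIF1C on chromosome 17 had a median log2 fold change of 0.30, which KIF1C exceeded by 0.14. KIF13B was called higher as well (log2 fold change 0.39, SE 0.083, adjusted p = 2.9e-04). Its close relative KIF13A, which moves recycling endosomes, went from 1377, 1507 and 1358 to 962, 899 and 984 normalized counts (log2 fold change -0.57, SE 0.066, adjusted p = 7.6e-08). KIF1B, a motor for mitochondria and synaptic vesicle precursors, was called lower by a margin close to the fold threshold (log2 fold change -0.27, SE 0.061, adjusted p = 4.2e-04), and this call was lost without ADRr replicate 1 (-0.25). The median of the 50 nearest tested genes was 0.34 for KIF1B and -0.24 for KIF13A. KIF16B, an early endosome motor, did not pass the test (log2 fold change 0.40, SE 0.18, adjusted p = 0.056). Without parent replicate 2 its value was 0.52 and it was called. The neuronal motor KIF1A had a count of 0 in all 6 libraries. The minus-end motors KIFC3, which works at cell junctions, and KIFC2 were not called, with log2 fold changes of 0.15 (SE 0.059, adjusted p = 0.026) and -0.01 (SE 0.075, adjusted p = 0.9). KIFC2 shares 17.8% of its exonic bases with FOXH1 on the opposite strand.

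Of 33 tested cargo adaptors and regulators of these motors, 14 were called higher (42.4%, against 29.2% of all tested genes) and 10 lower (30.3%, against 29.6%), with a median log2 fold change of 0.18. SPAG9 (JIP4), a scaffold between kinesin-1 and dynein, went from 2671 ± 212 to 5758 ± 201 normalized counts (log2 fold change 1.11, SE 0.057, adjusted p = 8.9e-14). NISCH fell from 2136 ± 37.2 to 1112 ± 29.1 normalized counts (-0.94, SE 0.057, adjusted p = 1.8e-12), and TRAK1, the adaptor that ties mitochondria to kinesin-1, from 1689 ± 121 to 1019 ± 9.54 (-0.73, SE 0.064, adjusted p = 1e-09). The genes around NISCH and TRAK1 on chromosome 3 were also lower, with medians of -0.61 and -0.53. The differences from these medians were -0.34 for NISCH and -0.20 for TRAK1. For SPAG9 the median of the surrounding genes was 0.06. The part of the neighbourhood in the NISCH and TRAK1 results was not tested. The next list was of dynein and dynactin, the motor system that runs the opposite way, with adaptors. Of its 34 tested genes, 7 were called higher (20.6%, against 29.2%) and 11 lower (32.4%, against 29.6%), with a median of -0.14. The largest increases were 0.41 for DYNLT3 (SE 0.069, adjusted p = 1.7e-05) and 0.37 for TRAK2 (SE 0.072, adjusted p = 9.7e-05). TRAK2 and HOOK3 are adaptors that were also on the cargo adaptor list. The lists therefore overlap, and TRAK2 counts as higher in both. The largest decreases were -0.87 for SPDL1, which brings dynein to kinetochores (SE 0.058, adjusted p = 8.6e-12), and -0.85 for ACTR1A, the filament subunit of dynactin (SE 0.054, adjusted p = 3.7e-12). Of 32 tested genes of intraflagellar transport and Hedgehog signalling, which depend on kinesin-2 and KIF7, 12 were called higher (37.5%, against 29.2%) and 10 lower (31.2%, against 29.6%), with a median of 0.04. In all 3 lists the share called lower was close to that of all tested genes, and the genes named are the extremes of each list, not its typical members. GLI3, a Hedgehog transcription factor, and CLUAP1, a transport particle subunit, were higher by 0.91 (SE 0.1, adjusted p = 4.3e-08) and 0.84 (SE 0.12, adjusted p = 1.6e-06). IFT122, a subunit of the retrograde particle, and SUFU, the inhibitor of GLI factors, had log2 fold changes of -1.65 (SE 0.13, adjusted p = 1.2e-10) and -1.01 (SE 0.089, adjusted p = 1e-09).

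Among the 13 remaining members, KIF21B showed the largest increase of the whole superfamily. This kinesin-4 motor, which pauses microtubule growth and is best known from neurons and lymphocytes, had 36, 74.6 and 54.5 normalized counts in parent and 276, 293 and 276 in ADRr libraries. The parent libraries were scattered around a mean of 55.1, and each ADRr library lay far above them (log2 fold change 2.36, SE 0.17, adjusted p = 3.1e-11). With limma-trend on log2(FPKM + 1), which shrinks the change of a gene with such low FPKM, its value was 0.89, and with log2(FPKM + 0.1) it was 2.03. The genes around it had a median of 0.01. Its paralog KIF21A was not called (log2 fold change 0.25, SE 0.084, adjusted p = 0.012), although its 3 ADRr libraries were above the parent libraries. It was called without parent replicate 2 (0.29) or ADRr replicate 2 (0.27). KIF21B accounted for 9.24% ± 2.8 of the FPKM of both genes in parent and 30.6% ± 1.0 in ADRr cells. Of the leukocyte markers, LAPTM5 and CORO1A were called higher in ADRr cells, as were 29.2% of all tested genes. Their log2 fold changes were 0.68 (SE 0.063, adjusted p = 2.7e-09) and 1.27 (SE 0.2, adjusted p = 9.2e-06). The other 6 of the 8 leukocyte markers had too few counts to be tested.

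KIF24, a kinesin-13 that removes microtubules at the mother centriole and holds back cilium formation, had 460.0, 509.5 and 506.5 normalized counts in parent and 217, 196 and 229.7 in ADRr libraries. It resembled the mitotic members in size (log2 fold change -1.197, SE 0.098, adjusted p = 3.1e-10). The 50 nearest tested genes on chromosome 9 had a median of -0.60, which KIF24 exceeded by another 0.60 downwards. KIF7, the kinesin-4 of the Hedgehog pathway at the cilium tip, was called lower (log2 fold change -0.34, SE 0.091, adjusted p = 0.0025), but its neighbours on chromosome 15 had a median of -0.52 and 11.8% of its exonic bases are shared with TICRR on the opposite strand. KIF2A, the widely expressed kinesin-13, had 1478, 1716 and 1390 normalized counts in parent and 1592, 1491 and 1548 in ADRr libraries, with overlapping groups (log2 fold change 0.02, SE 0.069, adjusted p = 0.85). It shares 8.97% of its exonic bases with IPO11 on the same strand. KIF2C and KIF24, of the same family, were called lower. KIF9, KIF27 and KIF26B were not called, with log2 fold changes of -0.14 (SE 0.22, adjusted p = 0.6), 0.02 (SE 0.11, adjusted p = 0.89) and 0.18 (SE 0.17, adjusted p = 0.35). KIF9 and KIF27 share 17.9% and 13.1% of their exonic bases with genes on the opposite strand. KIF6 and KIF26A had a count of 0 in all 6 libraries, and KIF12, KIF19 and KIF25 were not tested, with at most 9, 2 and 14 counts in any library.

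Summed over the 46 genes, kinesin FPKM was 574 ± 7.2 in parent and 370.0 ± 5.4 in ADRr cells. The mitotic members summed to 344 ± 7.5 and 137 ± 3.9, whereas the cargo members summed to 195 ± 2.8 and 200 ± 0.94 and the remaining ones to 35.5 ± 1.7 and 33.5 ± 0.59 (SD, n = 3). The mitotic members made up 60.1, 60.4 and 59.3% of kinesin FPKM in the parent libraries and 37.3, 36.3 and 37.2% in the ADRr libraries, and the cargo members 33.9% ± 0.77 and 54.0% ± 0.55. The 3 libraries of each group were close together, and the groups did not overlap. These sums weight abundant genes most, and a share can rise without any change in level when the other members fall.

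**Figure D4:**
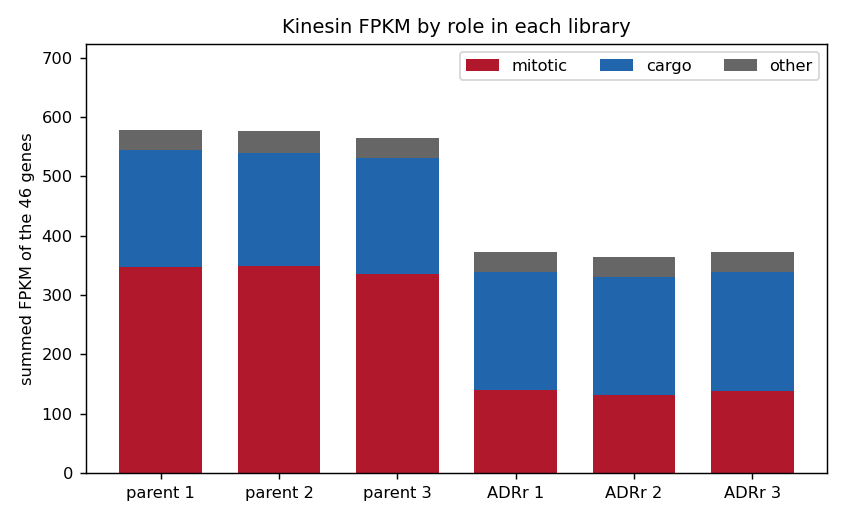
Summed FPKM of the 46 kinesin genes in each library, stacked by role (mitotic red, cargo blue, other grey). The cargo segment is 191 to 200 FPKM high in all 6 libraries, whereas the mitotic segment is 335 to 349 in the parent and 132 to 139 in the ADRr libraries.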

How the data were processed

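RNA-seq of 3 parent and 3 ADRr libraries was used. The methods describe polyA selection, the CORALL kit, paired-end sequencing, HISAT2, featureCounts and DESeq2, and the submitters' processing notes name fastp, HISAT2 2.0.5, featureCounts 1.5.0-p3, DESeq2 1.20.0 and GRCh38. The sample records describe another kit and another RNA amount, and the series record mentions 3 time points that no label gives, so libraries were taken as replicates within their group. The authors deposited raw counts per gene and FPKM values made from them. All member coordinates and lengths equal those of GENCODE 29. No pair of libraries agreed within sampling noise.

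The tests used edgeR 4.0.16 in R 4.3.3 (filterByExpr, TMM, quasi-likelihood test without a block, Benjamini-Hochberg adjustment over 15242 genes). The edgeR script was tested on simulated data. A standard error is the log2 fold change divided by the square root of the F statistic. Values given as ± are SD of 3 libraries. With 3 against 3 libraries an exact permutation test of 1 value cannot go below p = 0.1, so FPKM shares and ratios are given without a test. The neighbourhood of a gene is the 50 nearest tested genes of its chromosome.

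Members, roles and gene lists were chosen with earlier results of these data known. Per-library values are given for tested mitotic members, for other called members that moved by 0.5 or more on the log2 scale and for the leading members of families, and in each list the 2 largest increases and decreases called with at least 100 normalized counts. A gene that this rule selects is not reported here. The alternatives were DESeq2 1.42.0 or its size factors, library size alone, other filters, limma 3.58.1 on log2(FPKM + 1) or log2(FPKM + 0.1), a replicate block, each library left out and other call thresholds. RefSeq promoter windows were searched for motif letters as described in the text. Transcripts of KIF4A and KIF4B were aligned with blastn.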

Additional observations from a re-analysis of the deposited data

How the results depend on the processing

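The counts of 12 mitotic members called lower and 0 called higher were the same under every alternative except the following. The threshold of 1.2 on the log2 scale left 7 lower. Placing KIF2A and KIF24 among the mitotic members gave 13 lower, with KIF24 the addition and KIF2A not called. The log2 threshold of 1.2 also left 0 cargo members higher, 0 cargo members lower and 0 remaining members lower. Against a fold change of 1.2 with edgeR's glmTreat, 2 cargo members and 1 remaining member were called lower. With the adjusted p alone, with library size alone, without parent replicate 2 and without ADRr replicate 2, the remaining members gave 2 higher calls in place of 1, KIF21A being the addition in each. With KIF2A and KIF24 counted as mitotic, there was 1 remaining member lower, with a median of 0.10. The mitotic median was -1.15 with limma-trend on log2(FPKM + 1) and -1.12 after the median of the 50 nearest genes was subtracted from each member. That subtraction gave 0.16 for the remaining members. The cargo median was within 0.14 of 0 in all settings: 0.00 (-0.0036 and -0.0038) with limma-trend and pseudocounts of 1 and 0.1, and 0.0152 to 0.1344 with a library left out. The median of the remaining members was -0.0193 to 0.0567 with a library left out. KIF1B lost its call with library size alone (-0.25) and in both limma fits (-0.21 and -0.26), besides the loss without ADRr replicate 1. KIF3B was called without parent replicate 3 (-0.30) or ADRr replicate 1 (-0.27), and KIF16B with library size alone (0.43). KIF21B stayed called in both limma fits, at 0.89 and 2.03. In the limma fits genes under a mean FPKM of 0.5 were left out. No alternative reversed a call. Depth limits the 10 untested members and KIF17, KIF16B, KIF9 and KIF26B.

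The replicate numbers did not pair the libraries: same-numbered libraries correlated at 0.0074, -0.021 and -0.046 in their deviations from the group means. With the replicate block, 12 mitotic, 4 cargo and 2 remaining members were called lower and 0, 6 and 1 higher, as without it.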

Other observations

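The genes below carry a kinesin name but are not among the 46 members, and they were chosen after their values were seen. KIF28P, annotated as a unitary pseudogene on chromosome 1, had 4, 6 and 3 counts in parent and 30, 21 and 15 in ADRr libraries. It was near the detection limit in parent cells and passed the filter on low counts only through the ADRr libraries. Its log2 fold change of 2.24 is therefore a description, and no test result is given. KIF9-AS1, which lies antisense to KIF9 and shares bases with it, had 16, 20 and 46 counts in parent and 16, 16 and 13 in ADRr libraries. KIF9-AS1 was called lower in edgeR's quasi-likelihood test (log2 fold change -0.92, SE 0.39, adjusted p = 0.045) although the groups overlapped. The high parent value came from parent replicate 3. KIF1BP, a protein-coding gene whose product binds the motor domains of several kinesins and keeps them off microtubules, went from 1732 ± 84.4 to 1302 ± 12.9 normalized counts (log2 fold change -0.41, SE 0.059, adjusted p = 2.3e-06).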
